A study of Mus musculus with 6 samples.

Results

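Astrocytes were taken from Drop-seq libraries of mouse hypothalamus by a marker rule. Drop-seq isolates cells in droplets and reads the 3' ends of their transcripts, each marked by its cell and by a unique molecular identifier (UMI), so that a UMI counts a transcript end and needs no scaling for gene length. A cell was an astrocyte when it had at least 300 detected genes, at most 20% mitochondrial UMIs, at least 2 UMIs summed over Agt, Slc7a10, Ntsr2, Itih3, Slc6a11, Fgfr3 and Slc4a4, and at most 1 UMI summed over 12 genes of neurons, oligodendrocytes, their precursors, microglia, endothelial cells, tanycytes and ependymal cells. These were Snap25, Syt1, Mog, Opalin, Pdgfra, C1qa, C1qb, Cldn5, Rax, Col23a1, Ccdc153 and Tmem212. The rule found 1731 astrocytes among 9449 cells that passed the gene and mitochondrial limits, from 13994 barcodes in all. The groups were 3 libraries of IDOL knockout mice (KO1, KO2 and KO3) and 3 libraries of wild-type mice (WT1, WT2 and WT3), all of the C57BL/6J strain and all aged 8 weeks. Astrocytes numbered 234, 345 and 380 in KO1, KO2 and KO3, and 359, 171 and 242 in WT1, WT2 and WT3. It is not stated in the labels if a library is 1 animal, what stretch of Mylip (which encodes IDOL) is missing, or on which of the preparation days each library was made. P-values between the groups therefore measure the spread between libraries, which may be technical.

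Astrocytes are the glia that clear glutamate and GABA from synapses, buffer potassium, move water, feed neurons from glycogen and glucose, and make most of the apolipoprotein E and cholesterol that neurons use. In the hypothalamus they also sense glucose and hormones beside the neurons that set feeding. IDOL, the product of Mylip, is a ubiquitin ligase whose gene is switched on by the sterol-sensing liver X receptors (LXR), and it marks the lipoprotein receptors VLDLR and ApoER2 (the product of Lrp8) for breakdown. The knockout therefore asks about a gene that sits between cholesterol sensing and the uptake of the apolipoprotein E particles that astrocytes secrete.

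Metallothioneins, small cysteine-rich proteins that bind zinc and copper, were among the most abundant products of these cells, and their promoters are printed here because Mt1 and Mt2 were abundant together and lie side by side on chromosome 8 (GRCm38), Mt1 at chr8:94179082-94180327 and Mt2 at chr8:94172664-94173568, both on the plus strand. The sequences are RefSeq's for GRCm38.p6 and run from 250 bases before to 50 bases after the annotated start, at chr8:94178839-94179138 for Mt1 and chr8:94172368-94172667 for Mt2. That start differs from the starts of the gene coordinates above, which are GENCODE's. The Mt2 window thus ends just past the Mt2 start given there. Capitals mark the core of the metal response element, searched as TGCACNC or TGCGCNC on both strands, which is known as the binding site of the zinc-sensing factor MTF1.
Mt1: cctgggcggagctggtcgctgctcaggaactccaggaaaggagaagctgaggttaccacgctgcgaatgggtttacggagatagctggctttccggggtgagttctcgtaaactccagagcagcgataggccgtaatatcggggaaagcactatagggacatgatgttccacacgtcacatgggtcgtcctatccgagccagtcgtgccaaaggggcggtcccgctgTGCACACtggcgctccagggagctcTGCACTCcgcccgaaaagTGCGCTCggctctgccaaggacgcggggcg
Mt2: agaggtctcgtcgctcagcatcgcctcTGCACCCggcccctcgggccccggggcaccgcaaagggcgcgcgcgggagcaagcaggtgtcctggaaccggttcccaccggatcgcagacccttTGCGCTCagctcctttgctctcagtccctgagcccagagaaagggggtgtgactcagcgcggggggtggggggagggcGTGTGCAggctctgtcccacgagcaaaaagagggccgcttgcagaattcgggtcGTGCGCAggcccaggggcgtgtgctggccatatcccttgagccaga
The Mt1 window held 3 matches and the Mt2 window held 4. Of 32851 promoters of the same length, 25.7% held at least 1 match, 1.97% at least 3 and 0.517% at least 4. A match is a run of letters and was not tested as a binding site.

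The astrocytes were shallow cells. They had a median of 638 UMIs and 434 genes, with 341 to 18329 UMIs per cell, against medians of 1007 UMIs and 677 genes in the 7718 other cells. Median UMIs per astrocyte were 633, 589 and 611.5 in KO1, KO2 and KO3 and 683, 620 and 670 in WT1, WT2 and WT3, which gave 611 ± 22.0 in KO and 658 ± 33.3 in WT (SD, n = 3 each; two-sided exact permutation p = 0.2, where 3 against 3 libraries allow no p below 0.1). Summed over astrocytes, the libraries held 201391, 269360 and 313469 UMIs in KO and 350340, 141150 and 207978 UMIs in WT. The median mitochondrial share was 11.4%, 9.01% and 3.65% in the KO libraries and 7.85%, 5.79% and 6.71% in the WT libraries. Of all barcodes, 3 occurred in more than 1 library, and none of these was a passing cell. Scrublet, which scores cells against simulated mixtures, called 34 astrocytes (1.96%) doublets, and they were kept.

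The 7 marker genes chose the cells, so their values are a description. Slc4a4, a sodium bicarbonate cotransporter, had a UMI in 90.4% of astrocytes and Agt, the precursor of angiotensin, in 84.8%, against 8.14% and 3.80% of other cells. Itih3 was seen in 70.0%, Ntsr2 in 69.7%, Slc6a11, the GABA transporter GAT3, in 65.9%, Fgfr3 in 47.2% and Slc7a10, a serine and alanine exchanger, in 42.0%. Astrocytes held 89.2% of all Agt UMIs of the passing cells (chr8:124556534-124569706, minus strand). An astrocyte had between 2 and 145 marker UMIs with a median of 11, and 460 cells (26.6%) showed 5 of the markers, 176 (10.2%) all 7 and 48 (2.77%) only 1. The 94 cells just inside the limit, with 2 marker UMIs, had 11839 counts-per-million (CPM) summed over 20 other astrocyte identity genes, and the 363 cells just outside it, with 1, had 6164 CPM. The 2639 cells with no marker UMI had 3994 CPM, and astrocytes as a whole had 45373 CPM, with 41282 to 49058 CPM over the libraries. On the side of the other cell types, the 261 astrocytes with 1 excluded UMI had 37506 CPM, and the 100 cells left out with 2 such UMIs had 16725 CPM. The level thus fell in steps across both limits, and the cells at the edges carried fewer astrocyte transcripts than the rest.

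The 20 identity genes that the rule did not use were read in cells picked by expression in these same libraries. They describe the label and are no independent check of it. Each was higher in astrocytes than in the other cells, and each passed the test of the library sums described next. Levels are CPM of all UMIs of a cell set, as mean ± SD over 6 libraries. Slc1a2 and Slc1a3, the glutamate transporters GLT-1 and GLAST, stood at 4480 ± 838 and 4325 ± 461 CPM in astrocytes, against 198 ± 49.7 and 211 ± 53.6 CPM in other cells. Aldoc, a glycolytic aldolase, stood at 5043 ± 768 CPM in astrocytes and 511 ± 199 CPM in other cells. Aqp4, the water channel of astrocyte endfeet, stood at 1223 ± 192 CPM in astrocytes and 88.3 ± 48.8 CPM in other cells, and Gjb6, the gap junction protein connexin 30, at 1252 ± 231 CPM in astrocytes and 32.1 ± 30.7 CPM in other cells. In each of these genes the lowest astrocyte library lay above the highest library of other cells. The plot of identity genes shows 19 of them.

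**Figure D1:**
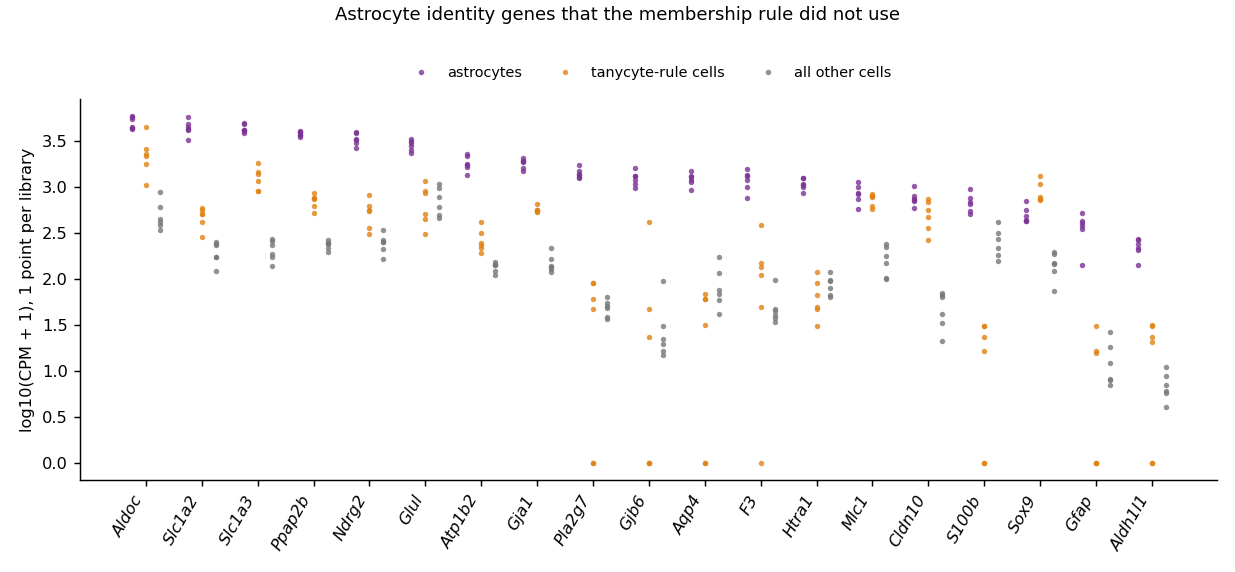
Levels of 19 of the 20 astrocyte identity genes in astrocytes, in cells chosen by tanycyte markers and in all other passing cells, as log10(CPM + 1) with 1 point per library (6 libraries). Every gene shown was higher in astrocytes than in the other cells, and Sox9 was the gene of the list that was lower in astrocytes than in tanycyte-rule cells, at 505 ± 114 CPM in astrocytes and 896 ± 252 CPM in tanycyte-rule cells.

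Library sums of astrocytes were set against those of all other cells, with library as a block, by edgeR's quasi-likelihood test over 10123 genes after the 19 rule genes were left out. Of these genes, 4940 (48.8%) passed at an adjusted p of 0.05, 2207 (21.8%) higher and 2733 (27%) lower in astrocytes. Since the cells were picked by their expression in these same libraries, these counts and the levels that follow describe the astrocytes and support nothing further. The largest fold among called genes of at least 200 CPM belonged to Atp13a4, a cation-transporting ATPase (log2 fold change 6.45 ± 0.18 SE), followed by Gjb6, Aldh1l1, the folate enzyme used to mark astrocytes, and Entpd2, which breaks down extracellular ATP. Cd38, Acsbg1, Pla2g7, Gfap, Hes5, Ednrb, F3, Dbx2 and Slc1a2 were among the 15 largest. The genes most depleted included Gal, Cartpt and Pomc, which encode neuropeptides.

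Transcripts of secreted and lipid-carrying proteins were abundant in astrocytes. The mitochondrial mt-Rnr2 (57767 CPM) and the nuclear RNA Malat1 (39540 CPM) ranked above them. Cst3, the protease inhibitor cystatin C, stood at 19312 CPM and Apoe, apolipoprotein E, at 19276 CPM, above Sparcl1, a secreted synaptogenic protein, at 15615 CPM and Sparc, its matrix relative, at 8806 CPM. Apoe stood at 19276 ± 3585 CPM in astrocytes, against 2456 ± 400 CPM in other cells, and astrocytes held 46.2% of all its UMIs. Of 17 secreted and matrix genes tested, 15 were higher and 1 was lower in astrocytes, with Bcan, a proteoglycan of the perineuronal matrix, at 1152 ± 118 CPM in astrocytes and 121 ± 20.8 CPM in other cells. Mt1 stood at 9140 ± 2805 CPM in astrocytes and 1660 ± 515 CPM in other cells, and Mt2 at 3643 ± 900 CPM in astrocytes and 508 ± 94.6 CPM in other cells. The metal- and oxidant-handling list as a whole had 10 genes higher and 2 lower of 17 tested against other cells, beside 21.8% and 27% of all genes. In this list Slc7a11, the cystine importer of glutathione synthesis, stood at 251 ± 84.6 CPM in astrocytes and 26.4 ± 14.1 CPM in other cells.

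Cholesterol synthesis genes were higher in astrocytes, while lipid carriers, receptors and LXR targets were mixed, with 8 higher and 2 lower of 13 in the carrier and receptor list and 9 higher and 2 lower of 13 in the LXR list. The shares over all genes tested were 21.8% higher and 27% lower. Of 21 cholesterol synthesis genes tested, 17 were higher in astrocytes and none lower, for instance Sc4mol, a sterol demethylase, at 520 ± 100 CPM in astrocytes and 140 ± 20.0 CPM in other cells. Srebf1, which drives fatty acid synthesis, stood at 241 ± 45.6 CPM in astrocytes and 63.3 ± 12.5 CPM in other cells. Among the receptors that IDOL acts on, Vldlr stood lower in astrocytes (37.6 ± 10.4 CPM, against 97.6 ± 9.25 CPM in other cells) and Lrp8 did not pass the test (40.9 ± 16.6 CPM in astrocytes and 40.6 ± 6.24 CPM in other cells). The cholesterol exporters went opposite ways, with Abca1 at 166 ± 26.3 CPM in astrocytes and 37.4 ± 8.12 CPM in other cells, and Abcg1 at 6.15 ± 5.64 CPM in astrocytes and 80.4 ± 12.6 CPM in other cells. Lcat, which esterifies the cholesterol of secreted particles, stood at 186 ± 41.8 CPM in astrocytes and 5.88 ± 3.20 CPM in other cells.

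Most of the listed receptors were higher in astrocytes, where 21.8% of all genes tested were higher and 27% lower. Of 16 receptor and calcium signalling genes tested, 13 were higher and 1 lower, led in level by Ednrb, the endothelin B receptor (1718 ± 211 CPM in astrocytes and 67.6 ± 15.7 CPM in other cells), Gpr37l1 (1584 ± 308 CPM in astrocytes and 126 ± 41.8 CPM in other cells) and S1pr1, a sphingosine phosphate receptor (775 ± 108 CPM in astrocytes and 88.2 ± 26.6 CPM in other cells). Bmpr1b, a receptor of bone morphogenetic proteins, stood at 147 ± 21.3 CPM in astrocytes and 4.03 ± 1.18 CPM in other cells. The insulin, leptin and growth hormone list leaned less, with 5 higher and 1 lower of 14. Of 18 transcription factors, 12 were higher and none lower, with Id2 at 958 ± 163 CPM in astrocytes and 93.2 ± 22.1 CPM in other cells and Hes5, a target of Notch, at 213 ± 79.1 CPM in astrocytes and 8.46 ± 4.17 CPM in other cells. Immediate early and stress genes, which rise within minutes of stimulation or tissue handling, ran the other way, with 16 of 17 lower in astrocytes and none higher. Fos, for example, stood at 832 ± 376 CPM in astrocytes and 1945 ± 359 CPM in other cells. Markers of other cell types were present in the astrocyte sums at a low level. All 8 oligodendrocyte markers tested were lower in astrocytes, and the neuronal RNA Meg3 stood at 847 ± 252 CPM in astrocytes and 6564 ± 768 CPM in other cells.

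Tanycytes, the glia that line the floor of the third ventricle, are the cells of this tissue most like astrocytes. A parallel rule asked for at least 2 UMIs over Rax, Col23a1 and Gpr50, with the same gene and mitochondrial limits. It allowed at most 1 UMI over the excluded genes other than Rax and Col23a1. It also allowed at most 1 UMI over the 7 astrocyte markers, which left out cells with more of them. This rule found 193 such cells with a median of 1318 UMIs. Of 2477 genes tested by edgeR between the library sums, 1064 (43%) passed, 575 higher (23.2%) and 489 lower (19.7%) in astrocytes, and here too both sets had been chosen by expression. Sparcl1 stood at 15615 ± 2138 CPM in astrocytes and 344 ± 188 CPM in tanycyte-rule cells (log2 fold change 5.81 ± 0.20). Aqp4 stood at 1223 ± 192 CPM in astrocytes and 36.2 ± 30.7 CPM in tanycyte-rule cells, and Slco1c1, a thyroid hormone transporter, at 151 ± 47.1 CPM in astrocytes and 1.63 ± 3.98 CPM in tanycyte-rule cells. Atp13a4, S100b, Dbx2, Scrg1, Tril and Etnppl were also among the 15 largest folds on the astrocyte side. Genes high in both sets were Cst3, at 19312 ± 2943 CPM in astrocytes and 16901 ± 3620 CPM in tanycyte-rule cells, and Apoe, at 19276 ± 3585 CPM in astrocytes and 11425 ± 2383 CPM in tanycyte-rule cells. The metallothionein and redox list was shared too, with 5 genes higher and 6 lower in astrocytes of 14 tested and a summed level of 13506 to 23680 CPM in astrocytes against a mean of 16181 CPM in tanycyte-rule cells. Mt1 stood at 9140 ± 2805 CPM in astrocytes and 5846 ± 1634 CPM in tanycyte-rule cells.

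Genes lower in astrocytes than in tanycyte-rule cells included Crym, Nes and Vim, while the thyroid and retinoid list was mixed, with 2 higher and 3 lower of 6. Of 13 transcription factors tested, 4 were higher and 6 lower in astrocytes than in tanycyte-rule cells. Among all genes tested, 23.2% were higher and 19.7% lower. Crym, a thyroid hormone binding protein, stood at 3.14 ± 5.03 CPM in astrocytes and 416 ± 203 CPM in tanycyte-rule cells. Nes, the intermediate filament nestin, stood at 16.0 ± 7.94 CPM in astrocytes and 293 ± 81.7 CPM in tanycyte-rule cells, and Vim, vimentin, at 120 ± 37.2 CPM in astrocytes and 831 ± 157 CPM in tanycyte-rule cells. The Notch targets went opposite ways, with Hes5 at 213 ± 79.1 CPM in astrocytes and 27.2 ± 46.0 CPM in tanycyte-rule cells, and Hes1 at 132 ± 77.1 CPM in astrocytes and 1056 ± 376 CPM in tanycyte-rule cells. All 15 immediate early and stress genes tested were lower in astrocytes, Fos at 832 ± 376 CPM against 4621 ± 1675 CPM in tanycyte-rule cells.

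Astrocytes differed among themselves in Gfap, the main intermediate filament protein of the cell type (chr11:102887336-102900912, minus strand). Only 161 of the 1731 astrocytes had a Gfap UMI, 16, 47 and 25 in KO1, KO2 and KO3 and 43, 9 and 21 in WT1, WT2 and WT3. These cells were deeper, with a median of 1014 UMIs against 613.5 UMIs in the 1570 Gfap-negative astrocytes, and a cell with no Gfap UMI may still express the gene. The share with a Gfap UMI was 6.84%, 13.6% and 6.58% in KO1, KO2 and KO3 and 12.0%, 5.26% and 8.68% in WT1, WT2 and WT3. In neuron-rule cells, which should lack Gfap and had a median of 2151 UMIs, it was 0 to 1.18%. Neuron-rule cells were passing cells with at least 2 UMIs over Snap25 and Syt1 and at most 1 over the other excluded genes. They also had at most 1 UMI over the 7 astrocyte markers, so a low Gfap share was partly built in. With each cell thinned to 500 UMIs, which left out 47, 84 and 100 shallower astrocytes of KO1, KO2 and KO3 and 61, 44 and 36 of WT1, WT2 and WT3, the share was 4.69%, 10.8% and 5.68% in the KO libraries and 7.65%, 4.85% and 5.56% in the WT libraries, and 0 to 0.894% in neuron-rule cells. The groups overlapped (7.06 ± 3.29% in KO and 6.02 ± 1.46% in WT, SD, n = 3 each; two-sided exact permutation p = 0.8).

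Gfap-positive astrocytes carried other transcripts as well. Of 2016 genes tested by edgeR between Gfap-positive and Gfap-negative sums of the same libraries, 456 (22.6%) passed, 237 higher (11.8%) and 219 lower (10.9%). The smallest p on the higher side belonged to Slc38a1, a glutamine transporter (chr15:96571418-96642913, minus strand), at 523 ± 193 CPM in Gfap-positive astrocytes and 85.3 ± 20.0 CPM in Gfap-negative astrocytes (log2 fold change 2.67 ± 0.22, higher in 6 of 6 libraries). Gfap-positive sums rested on few cells, only 9 in WT2 and 16 in KO1, and Slc38a1 had 163 UMIs in them in all. Aldh1a1, which makes retinoic acid, stood at 426 ± 115 CPM in Gfap-positive and 90.6 ± 30.1 CPM in Gfap-negative astrocytes. Cpe, the carboxypeptidase that trims peptide hormones, stood at 8040 ± 1208 CPM in Gfap-positive and 3069 ± 565 CPM in Gfap-negative astrocytes, and Dbi, a carrier of fatty acyl-CoA, at 6142 ± 752 CPM in Gfap-positive and 2463 ± 307 CPM in Gfap-negative astrocytes. Aqp4 and the transcription regulator Id4 were higher too, with log2 fold changes of 1.31 ± 0.15 and 1.90 ± 0.22, each in 6 of 6 libraries. Igfbp5, a binding protein of insulin-like growth factors, rose by 1.97 ± 0.22 and was higher in 5 of 6 libraries.

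The lipid carriers and redox genes that passed were all higher in Gfap-positive astrocytes, where 11.8% of all genes tested were higher and 10.9% lower. Of 7 lipid carriers and lipoprotein receptors tested, 6 were higher in Gfap-positive astrocytes and none lower, among them Apoe at 26017 ± 2849 CPM in Gfap-positive and 18162 ± 3823 CPM in Gfap-negative astrocytes. Clu, the lipid-binding chaperone clusterin, stood at 6774 ± 1439 CPM in Gfap-positive and 3447 ± 881 CPM in Gfap-negative astrocytes. Of 14 metallothionein and redox genes, 6 were higher and none lower, with Mt1 at 13321 ± 2650 CPM in Gfap-positive and 8311 ± 2566 CPM in Gfap-negative astrocytes, and Scd1, a fatty acid desaturase of the LXR list, rose by 1.66 ± 0.18 on the log2 scale. Abca1, another LXR target, went the other way, at 97.3 ± 34.8 CPM in Gfap-positive and 185 ± 44.8 CPM in Gfap-negative astrocytes.

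Genes lower in Gfap-positive astrocytes included some receptors and a nuclear RNA. Of 11 receptor and calcium signalling genes tested, 2 were lower and none higher, beside 10.9% and 11.8% of all genes. Of 19 identity genes tested, 8 were lower and 5 higher. The 7 rule markers, which chose the cells and were not tested, summed to a mean of 11365 CPM in Gfap-positive and 15281 CPM in Gfap-negative astrocytes. F3, the clotting receptor tissue factor, stood at 433 ± 241 CPM in Gfap-positive and 1356 ± 309 CPM in Gfap-negative astrocytes (log2 fold change -1.70 ± 0.19, lower in 6 of 6 libraries). Gria2, a glutamate receptor subunit, stood at 159 ± 78.9 CPM in Gfap-positive and 608 ± 91.1 CPM in Gfap-negative astrocytes. Gjb6, S1pr1 and Gpr37l1 also fell, with log2 fold changes of -0.92, -0.86 and -0.79, and the glutamate transporter Slc1a2 did not pass the test (4902 ± 1749 CPM in Gfap-positive and 4495 ± 898 CPM in Gfap-negative astrocytes). The nuclear RNA Malat1 stood at 19534 ± 3928 CPM in Gfap-positive and 43571 ± 3284 CPM in Gfap-negative astrocytes. The summed oligodendrocyte list averaged 2310 CPM in Gfap-positive and 4427 CPM in Gfap-negative astrocytes over the 6 libraries, and the neuron list 1048 CPM in Gfap-positive and 1876 CPM in Gfap-negative astrocytes. The rule allowed at most 1 excluded UMI per cell at any depth, and both lists hold excluded genes. Lower sums in the deeper Gfap-positive cells were thus partly built in. Transcripts of the mitochondrial genome summed to 94287 CPM in Gfap-positive and 80422 CPM in Gfap-negative astrocytes, with 6 of 9 genes higher and none lower, beside 11.8% and 10.9% of all genes. The part of these in the other differences was not tested. In cells of 600 to 1500 UMIs, an interval chosen after seeing the data, medians were 904 UMIs in 81 Gfap-positive and 768.5 UMIs in 744 Gfap-negative astrocytes. There 63 of 551 genes passed by edgeR (11.4%). Of the 20 named genes, chosen by their p in the same cells, 14 could be tested and had the same direction, which their choice made likely. Slc38a1, Aldh1a1, Fbxo2, Fxyd6, Igfbp5 and Id4, all on the higher side, could not be tested in this interval.

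**Figure D2:**
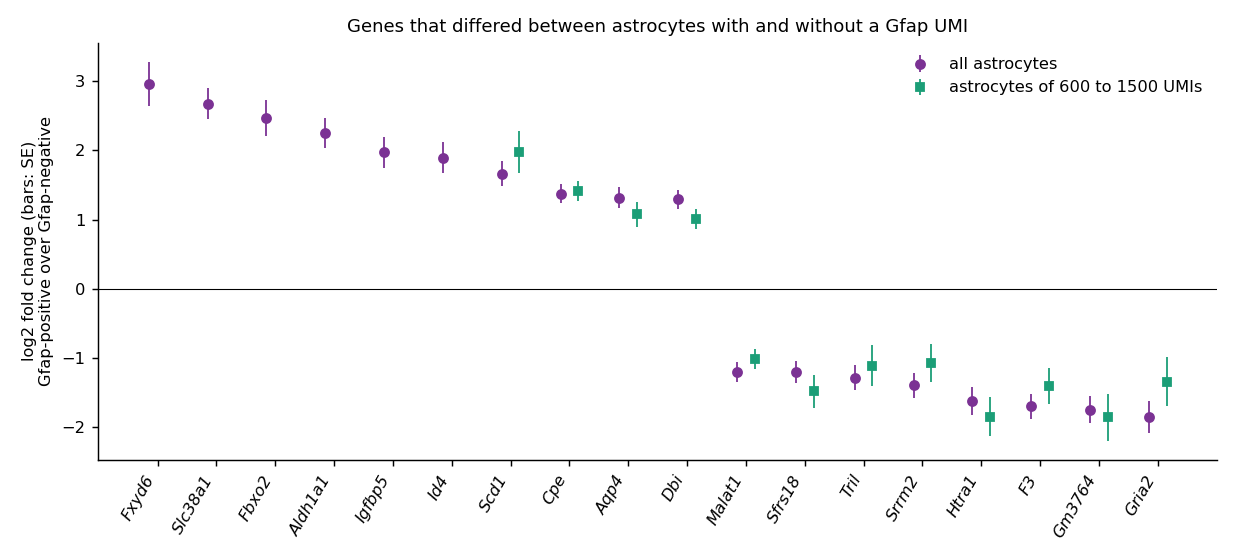
Log2 fold change ± SE of 18 of the 20 named genes in Gfap-positive over Gfap-negative astrocytes, for astrocytes of any depth and for those of 600 to 1500 UMIs. Slc38a1 was higher by 2.67 ± 0.22 and F3 lower (-1.70 ± 0.19) at any depth, and the 12 of these genes tested within the depth interval kept their direction, while a missing point marks a gene not tested there.

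The knockout was checked on Mylip (chr13:45389742-45412022, plus strand). Astrocytes had 1, 0 and 0 Mylip UMIs in KO1, KO2 and KO3 and 12, 5 and 5 in WT1, WT2 and WT3, so the WT level was 24.7 times the KO level (exact 95% interval 3.99 to 1018, counting error only). Other cells had 1, 0 and 0 UMIs in the KO libraries and 56, 22 and 39 in the WT libraries. In WT astrocytes this came to 34.3, 35.4 and 24.0 CPM, so few astrocytes showed a Mylip UMI at this depth. The mitochondrial gene mt-Nd3 (chrM:9459-9806, plus strand) also separated the groups, with 29, 88 and 9 UMIs in the KO libraries and 0 in each WT library, a UMI count at least 37.5-fold higher in KO astrocytes against a floor of 3 UMIs over the WT group. Other cells had 262, 676 and 96 mt-Nd3 UMIs in the KO libraries and 0 in the WT libraries. The gene encodes a subunit of the respiratory chain, and the zeros in the WT libraries are not read here as absent expression. Their source was not tested, be it expression, alignment or the mitochondrial sequence of the lines. Both genes fell below the expression filter of the main test. With no such filter both were among 26 genes called by edgeR, Mylip at an adjusted p of 0.00636 and mt-Nd3 at 9.1e-24.

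No gene of astrocytes passed the main test of KO against WT. edgeR called 0 of 4523 genes (0%) at an adjusted p of 0.05, and DESeq2 called 0 as well. The count rested on the libraries and the filter, since edgeR called 53 genes without WT2, 1 to 3 without any other single library and 26 with no expression filter. At an unadjusted p under 0.05 there were 193 genes (4.27%), 102 higher (2.26%) and 91 lower (2.01%) in KO, and 404 genes (8.93%) had KO and WT libraries that did not overlap, 202 (4.47%) in each direction. The share of astrocytes was 17.8 ± 1.90% of passing cells in KO and 18.6 ± 2.21% in WT (SD, n = 3 each; two-sided exact permutation p = 0.6). The difference in the KO effect between astrocytes and the other cells was tested as an interaction, and 0 of 11255 genes (0%) passed, with 346 (3.07%) at an unadjusted p under 0.05. The plot of fold change against level shows the named genes among all those tested.

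**Figure D3:**
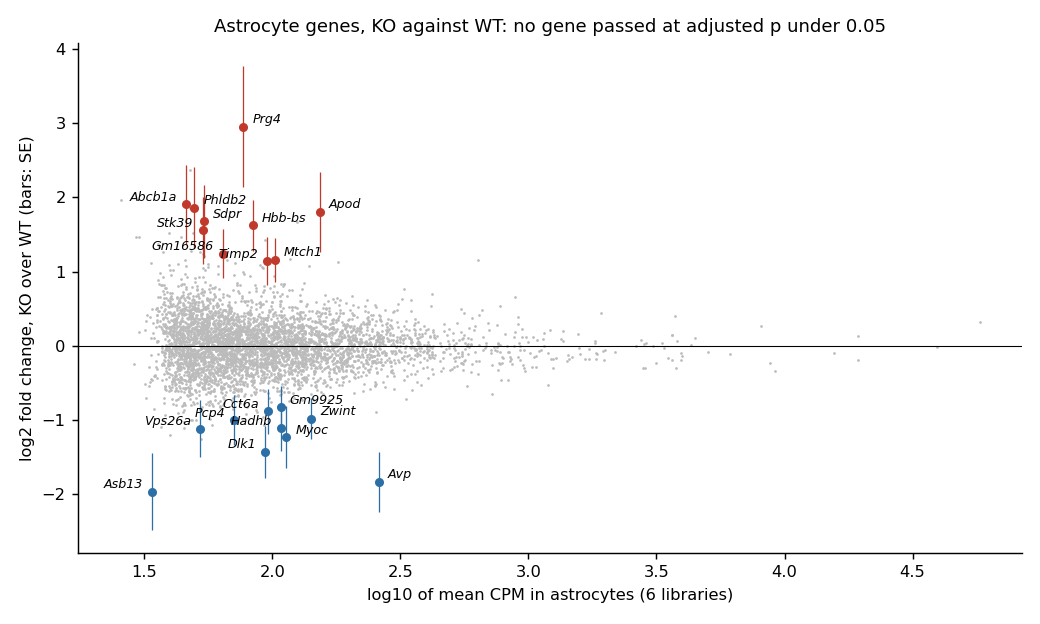
Log2 fold change of KO over WT astrocytes against log10 mean CPM for 4523 genes, with the 20 named genes marked with their SE. Hbb-bs (1.62 ± 0.34) and Avp (-1.84 ± 0.40) had the smallest p on each side, and no gene passed the adjusted threshold.

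The genes nearest the threshold on the higher side included a marker of another cell type. Hbb-bs, a beta globin of red blood cells (chr7:103826534-103828096, minus strand), had 149, 145 and 92.5 CPM in KO astrocytes and 48.5, 35.4 and 33.7 CPM in WT astrocytes (log2 fold change 1.62 ± 0.34, adjusted p = 0.297 by edgeR). All KO libraries lay above all WT libraries, but 25 of the 30 UMIs in KO1 came from 1 cell. Hbb-bs passed without KO3 (edgeR adjusted p = 0.0269) and without WT2 (edgeR adjusted p = 0.0188). The summed red blood cell list stood at 165 ± 49.6 CPM in KO astrocytes and 51.3 ± 15.2 CPM in WT astrocytes (SD, n = 3 each). Mtch1, which inserts proteins into the outer mitochondrial membrane, had 114, 126 and 185 CPM in KO and 71.4, 63.8 and 52.9 CPM in WT astrocytes (1.16 ± 0.30), again without overlap and spread over 20, 30 and 49 KO cells. Timp2, an inhibitor of matrix proteases, had 109, 115 and 160 CPM in KO and 40.0, 92.1 and 57.7 CPM in WT astrocytes. Gm16586, Abcb1a, Stk39, Sdpr, Phldb2 and Apod made up the rest with Prg4, and all had adjusted p-values of 0.779 to 0.794. Without WT2, Timp2, Abcb1a, Stk39, Sdpr, Phldb2 and Prg4 passed as well.

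Some of these sums rested on few cells. Prg4, a lubricating proteoglycan, had 1, 41 and 71 UMIs in the KO libraries and 0, 11 and 0 in the WT libraries, and 1 cell gave 37 of the 41 and another 33 of the 71. Apod, apolipoprotein D, had 83 UMIs in KO1, of which 52 were in 1 cell, and it passed without KO2 (edgeR adjusted p = 0.00829) and without WT2 (edgeR adjusted p = 0.0025). Markers of mural cells and fibroblasts summed to 333, 509 and 603 CPM in KO astrocytes and 103, 312 and 149 CPM in WT astrocytes, and those of oligodendrocytes to 4176, 1674 and 7382 CPM in KO and 1838, 5391 and 4183 CPM in WT. Their part in these differences was not tested.

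On the lower side, Avp, the hormone vasopressin (chr2:130580620-130582554, minus strand), had 144, 78.0 and 124 CPM in KO astrocytes and 619, 503 and 96.2 CPM in WT astrocytes (log2 fold change -1.84 ± 0.40, adjusted p = 0.297 by edgeR). The groups overlapped, since WT3 lay with the KO libraries, and single cells gave 94 of 217 UMIs in WT1 and 56 of 71 in WT2. Avp passed without WT2 (edgeR adjusted p = 0.00425) and without WT3 (edgeR adjusted p = 0.000392), while with at least 3 marker UMIs per cell its log2 fold change was -0.92 (edgeR adjusted p = 0.965). Asb13, a substrate adaptor of ubiquitin ligases, had 14.9, 11.1 and 16.0 CPM in KO and 68.5, 49.6 and 43.3 CPM in WT astrocytes (-1.97 ± 0.51), and Hadhb, a subunit of mitochondrial fatty acid oxidation, had 69.5, 92.8 and 47.9 CPM in KO and 180, 113 and 144 CPM in WT astrocytes (-1.12 ± 0.31). In Asb13 and Hadhb the groups did not overlap and no single cell had more than 4 UMIs, and Hadhb passed without WT2 (edgeR adjusted p = 0.0219). Dlk1, Zwint, Pcp4, Myoc, Vps26a, Cct6a and Gm9925 completed the lower side, with adjusted p-values of 0.685 to 0.998, and Dlk1 and Myoc passed without WT2. The neuron list summed to 1534, 1459 and 1758 CPM in KO astrocytes and 1764, 3054 and 1067 CPM in WT astrocytes.

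**Figure D4:**
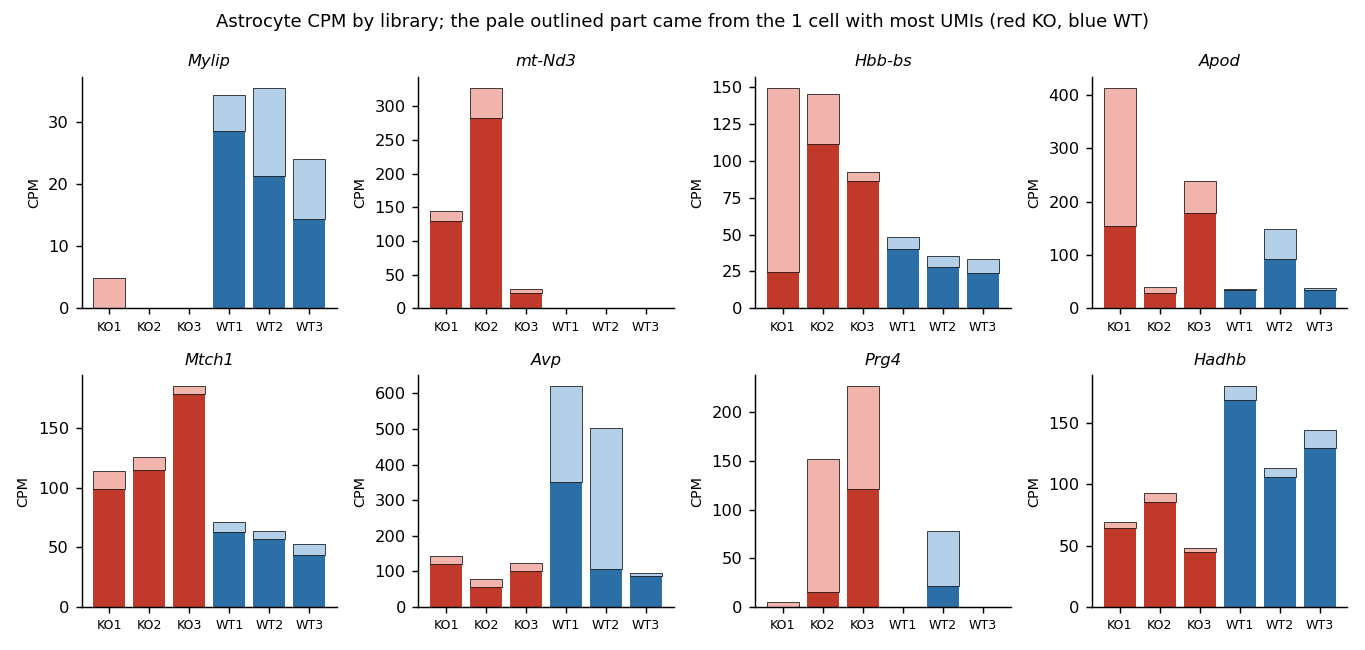
Astrocyte levels in CPM by library (3 KO, 3 WT) of Mylip, mt-Nd3, Hbb-bs, Apod, Mtch1, Avp, Prg4 and Hadhb, with the pale part of each bar from the 1 cell with the most UMIs of that gene. Hadhb and Mtch1 were spread over many cells, whereas 1 cell gave 25 of 30 Hbb-bs UMIs in KO1 and 56 of 71 Avp UMIs in WT2.

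The genes of the IDOL pathway gave no call in KO astrocytes. Apoe had 16173, 19554 and 18251 CPM in KO and 23985, 14913 and 22781 CPM in WT (log2 fold change -0.20 ± 0.24), and the groups overlapped. Lrp8 had 24.8, 48.3 and 60.6 CPM in KO and 25.7, 28.3 and 57.7 CPM in WT (0.33 ± 0.46). Vldlr, at 24.8, 48.3 and 51.0 CPM in KO and 37.1, 35.4 and 28.8 CPM in WT, fell below the filter, as did Abcg1 with 9 UMIs in all. IDOL acts on the receptor proteins, which were not measured. Abca1 (0.15 ± 0.25) and Srebf1 (0.04 ± 0.23) lay near 0. Of 11 lipid carriers and receptors tested, 7 had a positive and 4 a negative fold change (median log2 fold change 0.15), of 14 cholesterol synthesis genes 7 and 7 (median -0.04), and of 9 LXR pathway genes 5 and 4 (median 0.03). Over all 4523 genes the median was -0.00087 and 49.9% had a positive value.

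Genes of astrocyte identity, receptors and regulators gave no call in KO against WT. Of 20 identity genes, 9 had a positive and 11 a negative fold change with a median of -0.08, and in 2 of 20 the groups did not overlap, a share close to the 8.93% of all genes. F3, of these, had 1177, 761 and 992 CPM in KO and 1347, 1318 and 1563 CPM in WT (-0.53 ± 0.24, edgeR adjusted p = 0.998). Among receptors, Gabbr1, a subunit of the GABA-B receptor, had 293, 301 and 373 CPM in KO and 243, 213 and 231 CPM in WT (0.48 ± 0.22), and Grm3, a glutamate receptor, had 84.4, 70.5 and 73.4 CPM in KO and 31.4, 63.8 and 48.1 CPM in WT (0.76 ± 0.35). Sox2, a glial transcription factor, had 387, 360 and 325 CPM in KO and 223, 269 and 279 CPM in WT (0.49 ± 0.22). These 3 missed the adjusted threshold, at 0.998 each. They were the genes without overlap among 13 receptors (2) and 14 transcription factors (1) tested, against 8.93% of all genes. Gfap had 139, 379 and 402 CPM in KO and 520, 347 and 423 CPM in WT (-0.50 ± 0.28), and 1 cell gave 35 of the 49 UMIs in WT2.

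The metallothionein and redox list had 3 positive and 13 negative fold changes among 16 genes tested (median -0.21), and none passed. Mt1 had 6579, 10187 and 7452 CPM in KO and 12776, 6135 and 11708 CPM in WT (-0.35 ± 0.28), and Mt2 had 2959, 3542 and 3723 CPM in KO and 5349, 2869 and 3414 CPM in WT (-0.20 ± 0.25). WT2 held the lowest level of both genes, so the groups overlapped. The glycolysis list ran 4 positive and 12 negative of 16 (median -0.15), and the list of insulin, leptin and growth hormone signalling 8 positive and 1 negative of 9 (median 0.08). Insr, the insulin receptor, had 74.5, 74.3 and 51.0 CPM in KO and 45.7, 49.6 and 52.9 CPM in WT. Lepr, the leptin receptor, had 1 UMI in all astrocytes, in WT3.

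Immediate early and stress genes separated the libraries across genotype. Their summed level was 3744, 1968 and 3704 CPM in KO1, KO2 and KO3 and 2201, 6100 and 1481 CPM in WT1, WT2 and WT3. Thus KO1, KO3 and WT2 stood above KO2, WT1 and WT3. Atf3, a stress-induced factor, had 149, 18.6 and 105 CPM in KO and 28.5, 390 and 9.62 CPM in WT, and Jun had 695, 241 and 549 CPM in KO and 351, 1141 and 245 CPM in WT. Of 16 genes tested in the list, 9 had a positive and 7 a negative fold change (median 0.16), and none passed. The other cells of the same libraries had 7154, 5938 and 10888 CPM in KO and 5278, 8899 and 8503 CPM in WT for the list, where WT3 was among the high libraries. Fabp7, a brain fatty acid binding protein, had 636, 282 and 217 CPM in KO and 137, 510 and 144 CPM in WT, and 1 cell gave 41 of its 72 UMIs in WT2. The part of this spread between libraries in the comparison of KO with WT was not tested beyond leaving libraries out.

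**Figure D5:**
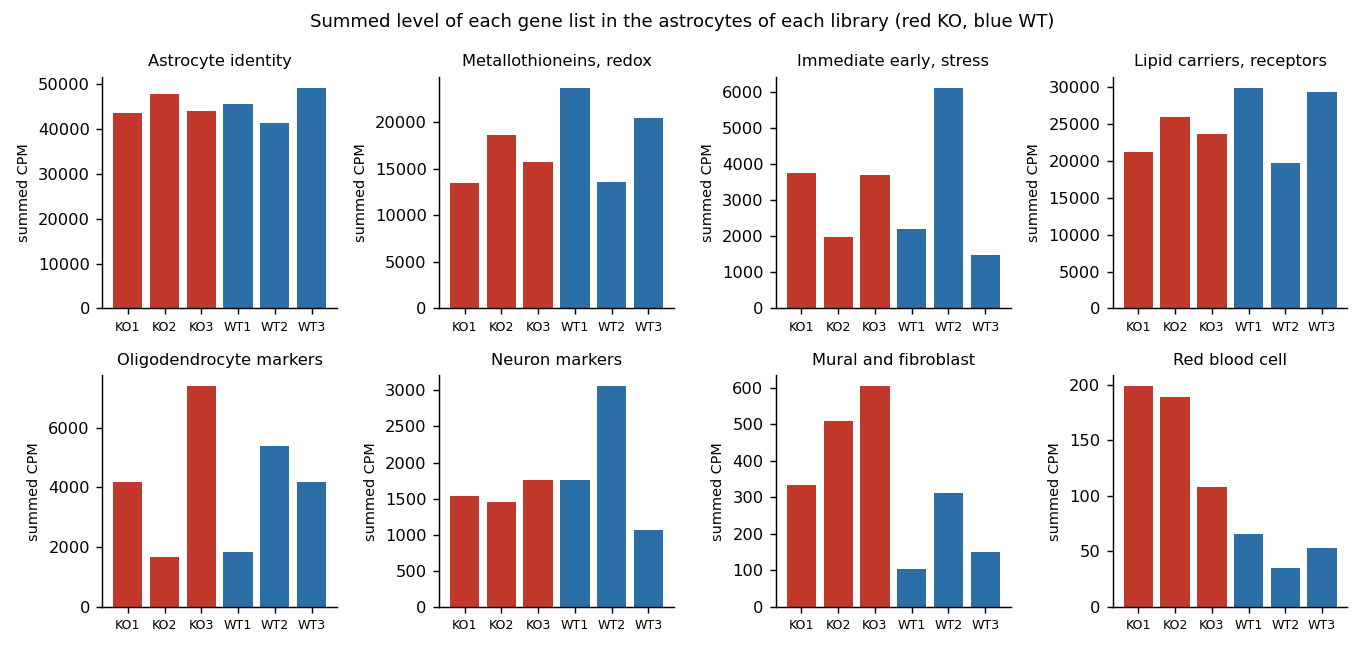
Summed CPM of 8 gene lists in astrocytes, 1 bar per library (3 KO, 3 WT). The red blood cell list stood at 165 ± 49.6 CPM in KO and 51.3 ± 15.2 CPM in WT, and the immediate early list was highest in WT2 at 6100 CPM, with KO1 and KO3 next.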

How the data were processed

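UMI counts per gene and barcode were deposited by the authors as 1 table of raw counts for all 6 libraries (18204 gene symbols). Per the submitters' processing notes, bcl2fastq and STAR 2.5.0c were used with mm10 and GRCm38. The counting program, annotation and strand are not given in the sources used here, so overlapping and antisense genes cannot be told apart. Coordinates came from GENCODE M21, which matched 93.9% of the symbols. The members and gene lists were chosen with earlier results of these data known.

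Counts were summed per library and cell set, since cells are not replicates, and compared by the quasi-likelihood F-test of edgeR 4.0.16 (R 4.3.3) after filterByExpr and TMM scaling, with Benjamini-Hochberg adjustment over all genes tested and a threshold of 0.05. Contrasts within libraries had library as a block and left out the genes of the rules. DESeq2 1.42.0 was an alternative. The SE of a fold change is its size over the square root of F. Named genes were the 10 of smallest p in each direction (KO against WT, and Gfap), the 15 of largest fold on each side with at least 200 CPM (against other cells), fixed pathway genes and the most abundant members of each list. Genes given outside that rule were chosen after their values were seen. Scrublet ran in scanpy 1.11.5. The code was tested on simulated counts. Intervals and floors cover counting error only. A few genes are not reported here.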

Additional observations from a re-analysis of the deposited data

How the results depend on the processing

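The 0 calls of KO against WT stayed 0 with at least 500 genes per cell, at least 3 marker UMIs, no excluded UMI, doublets removed, RLE scaling, robust fitting or DESeq2. With no gene filter edgeR called 26 genes (20 higher and 6 lower in KO), and without KO1, KO3 and WT2 together, chosen after seeing the data for their immediate early genes, 22 (16 and 6). Leaving out single libraries gave 1 to 53 calls, 53 without WT2 (48 and 5) and 1 to 3 without any other, among them Rgs5 without KO1, Apod without KO2, Hbb-bs without KO3, mt-Nd3 without WT1 and Avp without WT3. The interaction count was 3 with no excluded UMI, 10 with no gene filter and 0 to 8 without single libraries. Against tanycyte-rule cells, 636 genes passed with at least 500 genes per cell, 1966 with no gene filter and 813 to 1161 without single libraries, and against other cells 4340 to 4845 without single libraries. The Gfap count was 150 with at least 500 genes per cell, 268 by DESeq2, 63 within 600 to 1500 UMIs and 305 to 499 without single libraries. The difference in astrocyte share, KO minus WT, reversed without KO1 (0.214 percentage points) and without WT3 (0.219), with a range of -1.98 to 0.219 without single libraries, and it was -2.03 with at least 500 genes per cell. The difference in median depth became 19.8 UMIs with at least 500 genes per cell and ran from -65.3 to -33.8 UMIs without single libraries. The difference in the thinned Gfap share reversed to -0.835 points without KO2, with a range of -0.835 to 2.23 without single libraries. The causes of these changes were not tested, and none of the genes named in a test reversed.

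KO and WT share replicate numbers, and a fit with the replicate block gave 0 calls. Same-numbered libraries deviated from their group means with correlations of -0.221, -0.333 and 0.0303 over 2101 genes. Differently numbered libraries ran from -0.151 (KO1 with WT3) to 0.363 (KO2 with WT1). With 3 libraries per group, deviations from a group mean cannot decide if the numbers pair libraries. Depth limits low genes such as Mylip, of which the WT astrocytes of a library held 5 to 12 UMIs.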
